A study of Homo sapiens with 9 samples.

Results

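The COP9 signalosome and cullin neddylation genes described here were 10 named genes: COPS2, COPS3, COPS4, COPS5, COPS6, COPS7A, COPS8 and GPS1, which encode subunits of the COP9 signalosome, and NEDD8 and CAND1. They were chosen by gene symbol and not by a measured value. All 10 were present among the 23621 gene rows of the expression table. All 10 were also among the 12301 genes tested, whose mean level was 1 FPKM or more (FPKM counts fragments, scaled to transcript length and to the size of the library).

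RNA was sequenced from the human leukemia line MOLT4, derived from T-cell acute lymphoblastic leukemia, in 9 libraries made after 6 h of treatment. The 3 vehicle libraries received 0.1% DMSO, 3 libraries are titled MI-389 and 3 are titled sunitinib. Sunitinib is a kinase inhibitor, and the series design calls MI-389 a phthalimide conjugate. Some phthalimides bind cereblon, a substrate receptor of a cullin-RING ubiquitin ligase. All groups came from this 1 line, and nothing in the labels says whether replicates were separate cultures, so p-values measure the spread between these libraries, which may be technical. The labels conflict on the compounds. Where the title says MI-389, the source field says sunitinib at 1 µM, and where the title says sunitinib, the source field says MI-389 at 0.1 µM. Groups here follow the titles, whose names the table's columns carry. If the source field were right, each statement on one compound would belong to the other. The doses in that field differ, so the treated groups are not compared at a matched dose. Both comparisons with vehicle use the same 3 DMSO libraries.

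Cullins are scaffolds of a large family of ubiquitin ligases: one end holds a RING protein that recruits the ubiquitin-loaded enzyme, and the other end holds an adaptor with an exchangeable substrate receptor. Attachment of the small ubiquitin-like protein NEDD8 to the cullin, by its own activating, conjugating and ligating enzymes, turns the ligase on. The COP9 signalosome removes NEDD8 again, and CAND1 binds the bare cullin and lets substrate receptors be exchanged. The signalosome is built from subunits with a PCI domain (GPS1, COPS2, COPS3, COPS4, COPS7A or its paralog COPS7B, and COPS8) and a pair with an MPN domain (COPS5, the metalloprotease, and COPS6, its catalytically inactive partner). The small subunit COPS9 is listed in the table as MYEOV2.

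The promoters of NEDD8, COPS7A and COPS3 are shown because NEDD8 and COPS7A were the members that fell in the MI-389-titled libraries and COPS3 was the member with the largest rise between the treated groups. Sequences are those of RefSeq on GRCh38.p14, 250 bases upstream of the annotated start, 5′ to 3′ on the gene's strand. They come from chr14:24232368-24232617 (minus strand, NEDD8), chr12:6723796-6724045 (plus strand, COPS7A) and chr17:17281247-17281496 (minus strand, COPS3). Capitals mark CCGGAAG, an ETS-type core, and TGACGT, the core of a cAMP response element, searched on both strands.
NEDD8: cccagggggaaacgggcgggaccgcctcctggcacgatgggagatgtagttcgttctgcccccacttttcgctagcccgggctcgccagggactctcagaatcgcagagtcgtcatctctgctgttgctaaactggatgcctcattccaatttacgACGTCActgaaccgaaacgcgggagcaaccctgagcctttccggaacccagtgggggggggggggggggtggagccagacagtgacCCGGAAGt
COPS7A: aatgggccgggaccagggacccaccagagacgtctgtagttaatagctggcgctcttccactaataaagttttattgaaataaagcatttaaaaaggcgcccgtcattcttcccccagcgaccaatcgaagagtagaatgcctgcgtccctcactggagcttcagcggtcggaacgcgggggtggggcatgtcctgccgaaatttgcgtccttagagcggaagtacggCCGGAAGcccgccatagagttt
COPS3: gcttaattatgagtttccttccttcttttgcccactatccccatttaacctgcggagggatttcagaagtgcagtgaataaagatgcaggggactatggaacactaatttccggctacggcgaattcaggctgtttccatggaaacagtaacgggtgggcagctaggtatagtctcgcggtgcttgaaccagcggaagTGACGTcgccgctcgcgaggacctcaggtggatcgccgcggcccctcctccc
The NEDD8 window held both motifs, with CCGGAAG beginning at position −8 and the reverse complement of TGACGT at −94, counted back from the start of the gene. COPS7A held CCGGAAG at −22, and COPS3 held TGACGT at −52. Other motifs were searched too and are not in capitals: NEDD8 held GGGCGG at −237 and CCAAT at −104, and COPS7A held CCAAT at −129. Whether any motif bears on the differences was not tested. Of 27305 promoters of this length, 8.82% held CCGGAAG and 7.42% held TGACGT. Of the members, 9 matched an entry (not COPS5), and 2 of these 9 held each motif. The GC box GGGCGG was present in 5 of 9 members and in 42.3% of all promoters, and CCAAT in 5 of 9 members and in 33.0% of promoters. COPS6 was the 1 member with the NRF1 core CATGCGC, found in 3.96% of promoters. No member window held the letters TGATGNAA (an ATF4 composite site, 3.19% of promoters), TGANTCA (AP-1, 6.60%), GAANNTTC (a heat shock element, 5.85%) or AAGATGG (YY1, 3.77%). No match in a member overlapped another. GC content was 62.0% in the NEDD8 window and 54.0% in the other two, with a median of 58.0% over all promoters.

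All 10 T-lymphoid marker genes that were checked had a mean of at least 1 FPKM, with a summed level of 3523 to 4463 FPKM in DMSO, 3352 to 3569 FPKM in the MI-389-titled libraries and 3736 to 3976 FPKM in the sunitinib-titled libraries. All 5 myeloid markers, 3 of 5 B cell markers and 4 of 5 epithelial and fibroblast markers were under 1 FPKM on average. Read totals cannot be taken from FPKM. As a rough guide to depth relative to DMSO, the steps between low values gave a ratio of 1.41 for the MI-389-titled libraries (82 rows) and 1.35 for the sunitinib-titled libraries (97 rows). Of these rows, 69.5% and 58.8% lay close to the ratio. How the authors scaled the values is not given, so depth and scaling cannot be told apart in it. Every member stood between 33.4 and 775 FPKM in every library, far above the lowest value in the table, 0.0924 FPKM.

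In vehicle-treated cells the levels of the members spread widely. NEDD8 was the most abundant at 703 ± 83.3 FPKM (mean ± SD, n = 3 here and below), above 97.7% of the tested genes. COPS6 followed at 385 ± 45.7 FPKM and COPS3 at 203 ± 17.4 FPKM. The next neighbours were GPS1 at 179 ± 21.3 FPKM and COPS5 at 177 ± 4.19 FPKM. DMSO libraries of COPS3 and GPS1 overlapped, as did those of GPS1 and COPS5, so the order of these neighbours lay within their spread. COPS4 stood at 137 ± 9.96 FPKM, CAND1 at 96.8 ± 6.16 FPKM and COPS8 at 82.8 ± 4.03 FPKM. COPS2 was at 60.3 ± 4.21 FPKM and COPS7A was the lowest at 39.9 ± 3.97 FPKM, above 63.1% of the tested genes. DMSO libraries of every other pair of neighbours in this order did not overlap. These levels are per length of transcript, and in a bulk culture fewer cells of a type and less RNA per cell cannot be told apart.

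The vehicle libraries varied more than the treated ones. DMSO replicate 1 held the lowest of the 3 vehicle values for 9 of 10 members, as it did for 61.1% of tested genes. DMSO replicate 3 held the highest for 9 of 10 members, as it did for 75.7% of tested genes. The median coefficient of variation of the members was 7.92% in DMSO, 2.10% in the MI-389-titled libraries and 2.93% in the sunitinib-titled libraries, beside 9.06%, 5.07% and 4.47% over all tested genes. It was largest in DMSO for 9 of 10 members, with COPS5 as the exception. Where leaving out DMSO replicate 1 changed the call of a member, both values are given below.

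**Figure D1:**
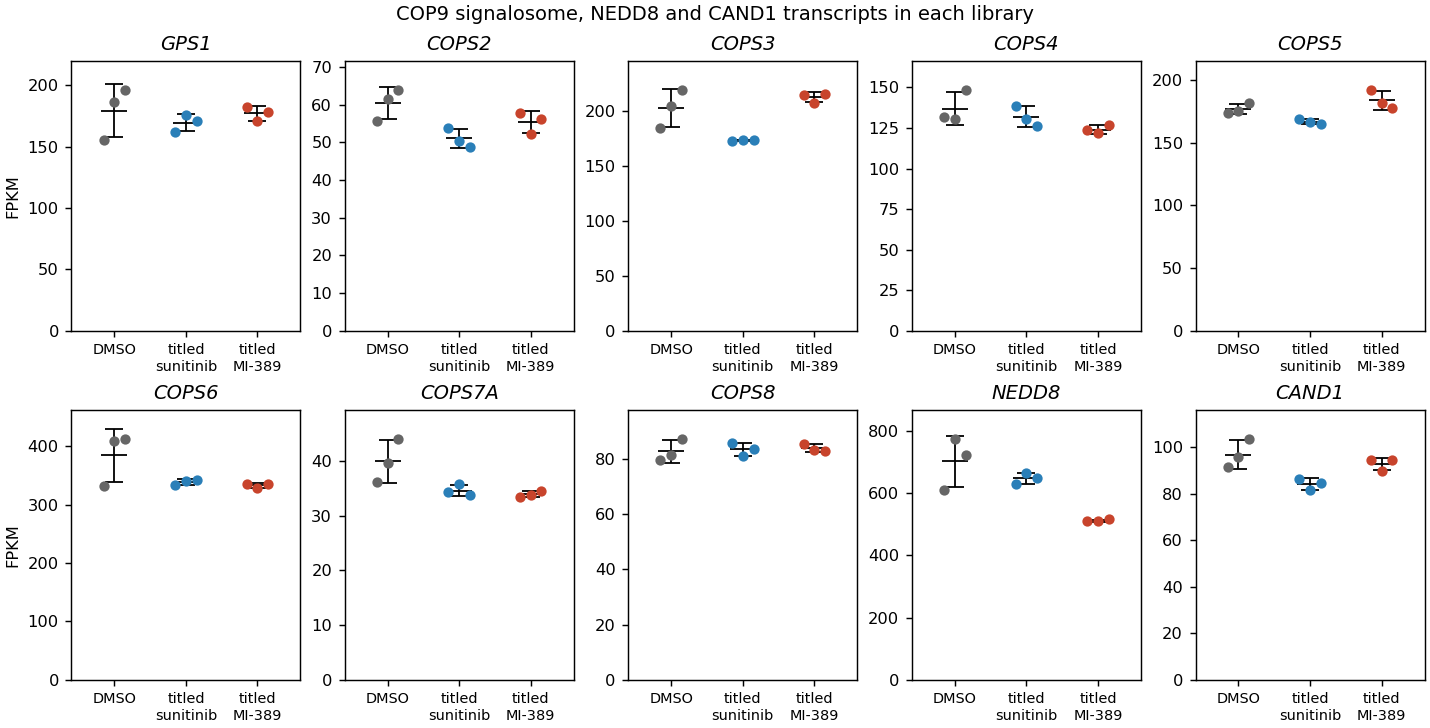
FPKM of each of the 10 members (1 panel per gene) in the 3 DMSO libraries, the 3 MI-389-titled libraries and the 3 titled sunitinib. Points are libraries and bars are the mean ± SD. NEDD8 stood at 509.8 to 516 FPKM in the MI-389-titled libraries and at 611 to 775 FPKM in DMSO, while COPS8 and GPS1 overlapped between all groups.

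The first comparison asked how the members differed between the MI-389-titled libraries and DMSO. With the values as deposited, NEDD8 and COPS7A fell and no member rose, though some other scalings called members higher, as given below. These 2 of 10 members were called in a comparison where 56.7% of all tested genes were (adjusted p under 0.05, limma with Benjamini-Hochberg adjustment over 12301 genes; 28.5% higher and 28.3% lower, or 3502 and 3477 genes, which became 3222 and 4956 with median centring). The median difference over the 10 members was −0.09 on the log2(FPKM + 1) scale, which is the scale of every log2 difference below, beside −0.00 over all tested genes. The median size of the difference regardless of sign was 0.10 for the members and 0.27 for all tested genes.

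NEDD8, the modifier itself, was at 611, 775 and 722 FPKM in DMSO, at 509.8, 511 and 516 FPKM in the MI-389-titled libraries, and at 629, 666 and 649 FPKM in the sunitinib-titled libraries. All MI-389-titled libraries lay below all others, and the sunitinib-titled libraries lay within the range of DMSO. The mean in the MI-389-titled libraries, 512 ± 3.35 FPKM, was 27.1% lower than in DMSO (log2 difference −0.45, 95% interval −0.63 to −0.27, adjusted p = 0.00106). The size of this fall depended on how libraries were scaled: with quantile normalization it was −0.22 and with cyclic loess −0.13 (adjusted p = 0.00724), and it passed the threshold under all 21 alternatives. The table holds a separate NEDD8-MDP1 readthrough, listed at 0.149, 0.180 and 4.87 FPKM in DMSO, which shares exons with NEDD8, so how reads were divided among the pair is uncertain. On the opposite strand GMPR2, which overlaps NEDD8 and cannot be told apart from it by strand in this library type, was at 91.8 ± 4.48 FPKM in DMSO and 85.9 ± 3.12 FPKM in the MI-389-titled libraries (log2 difference −0.09, adjusted p = 0.153).

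COPS7A, one of a pair of paralogous PCI subunits, was at 36.1, 39.7 and 44.0 FPKM in DMSO and at 33.4, 33.9 and 34.5 FPKM in the MI-389-titled libraries. The groups did not overlap, and DMSO replicate 1 was the vehicle library nearest to the treated ones. The mean fell from 39.9 ± 3.97 to 33.9 ± 0.544 FPKM (log2 difference −0.22, 95% interval −0.38 to −0.07, adjusted p = 0.0188). Without replicate 1 of the MI-389-titled libraries the adjusted p was 0.0575.

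COPS6, the inactive MPN partner, was at 332, 409.7 and 412 FPKM in DMSO and at 336, 328 and 335 FPKM in the MI-389-titled libraries. DMSO replicate 1 lay among the treated libraries and the other two vehicle libraries lay above them all. The difference was −0.20 (95% interval −0.38 to −0.02) and did not pass the threshold (adjusted p = 0.0535). Without DMSO replicate 1 it was −0.30 (adjusted p = 2.46e-05). In that fit 5 members instead of 2 were called, beside 58.9% of all tested genes instead of 56.7%. COPS6 was also called with median centring (−0.28), spike-in rescaling (−0.19) and robust variance (−0.20). The difference of COPS6 had the other sign with quantile normalization, 0.03, and with cyclic loess, 0.08, which called it higher (adjusted p = 0.015).

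COPS4, a PCI subunit, was at 132, 131 and 148 FPKM in DMSO and at 124, 122 and 127 FPKM in the MI-389-titled libraries. Its groups did not overlap, but the difference of −0.14 was not called (95% interval −0.28 to −0.00, adjusted p = 0.0796). It was −0.17 without DMSO replicate 1 (adjusted p = 0.0398) and −0.22 with median centring (adjusted p = 0.000774), both called, and 0.02 with cyclic loess. With NEDD8 and COPS7A, COPS4 made 3 of 10 members whose MI-389-titled libraries all lay below DMSO, as 29.7% of tested genes did. No member's libraries all lay above DMSO, as 30.5% of tested genes did, so that 3 of 10 members and 60.2% of tested genes did not overlap.

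The other 6 members overlapped between these groups. COPS3 had a difference of 0.07 (95% interval −0.07 to 0.21, adjusted p = 0.361) and COPS5, the metalloprotease, one of 0.05 (95% interval −0.05 to 0.16, adjusted p = 0.364). Quantile normalization gave 0.26 for COPS3 and 0.20 for COPS5, and cyclic loess gave 0.29 and 0.25, all past the threshold, while median centring gave −0.01 and −0.03. COPS2 differed by −0.12 (95% interval −0.27 to 0.03, adjusted p = 0.149; called at −0.20 with median centring, −0.14 with quantile normalization and −0.10 with cyclic loess, and at −0.18 without DMSO replicate 1, adjusted p = 0.0301) and CAND1 by −0.06 (95% interval −0.18 to 0.07, adjusted p = 0.412). COPS8 differed by 0.02 (95% interval −0.09 to 0.14) and GPS1 by −0.01 (95% interval −0.20 to 0.17). Cyclic loess called both higher, COPS8 at 0.10 (adjusted p = 0.0232) and GPS1 at 0.19 (adjusted p = 0.0016). Quantile normalization also called GPS1 higher, at 0.13 (adjusted p = 0.0132), and median centring called CAND1 lower, at −0.14 (adjusted p = 0.0013). The intervals of all 6 held 0, and under another scaling the direction turned for COPS3, COPS5, COPS8, GPS1 and CAND1. COPS5 is overlapped by CSPP1, which stood at 19.9 ± 1.41 FPKM in DMSO and 27.7 ± 2.19 FPKM in the MI-389-titled libraries (log2 difference 0.45, adjusted p = 0.000563); its part in the COPS5 values was not tested.

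The sunitinib-titled libraries were compared with the same vehicle libraries. COPS2, COPS3 and CAND1 fell, each by a log2 difference of −0.24 to −0.20, and no member rose. These were 3 of 10 members, beside 19.3% of all tested genes called in this comparison, 16.9% lower and 2.37% higher. The members' median log2 difference was −0.14, beside −0.10 for all tested genes, and the latter became −0.01 with median centring and 0.00 with cyclic loess. Median centring also moved the split over all tested genes from 291 higher and 2079 lower to 1270 higher and 1866 lower.

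COPS3, a PCI subunit, was at 185, 205 and 219 FPKM in DMSO and at 173, 174 and 173 FPKM in the sunitinib-titled libraries. All sunitinib-titled libraries lay below all vehicle libraries, with DMSO replicate 1 nearest. The fall was 14.5% (log2 difference −0.22, 95% interval −0.36 to −0.08, adjusted p = 0.0367).

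COPS2, another PCI subunit, was at 55.7, 61.4 and 63.9 FPKM in DMSO and at 53.8, 50.4 and 48.9 FPKM in the sunitinib-titled libraries. The groups did not overlap and the mean fell from 60.3 ± 4.21 to 51.0 ± 2.54 FPKM (log2 difference −0.24, 95% interval −0.39 to −0.09, adjusted p = 0.0372). GALK2, which overlaps COPS2 on the other strand, was at 20.0 ± 1.47 FPKM in DMSO and 17.0 ± 1.18 FPKM in the sunitinib-titled libraries (log2 difference −0.22, adjusted p = 0.0516); its part in the COPS2 values was not tested.

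CAND1, the exchange factor, was at 91.4, 95.6 and 104 FPKM in DMSO and at 86.5, 81.5 and 84.5 FPKM in the sunitinib-titled libraries. These groups did not overlap either, and the mean fell by 13.1% (log2 difference −0.20, 95% interval −0.33 to −0.07, adjusted p = 0.0372). All 3 of these calls lay near the threshold. COPS2 passed it under 11 of 21 alternatives, COPS3 under 9 and CAND1 under 7, and no member was called when the 6 compared libraries were fitted alone (adjusted p of 0.0794, 0.0945 and 0.0923 in this order). With quantile normalization the differences shrank to −0.12, −0.08 and −0.07. Without DMSO replicate 1, 7 members were called, and without DMSO replicate 2, DMSO replicate 3, replicate 2 or 3 of the sunitinib-titled libraries, or replicate 1 or 3 of the MI-389-titled libraries, none was.

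COPS5 and COPS7A did not overlap between these groups but were not called. COPS5 was at 174, 176 and 182 FPKM in DMSO and at 169, 167 and 165 FPKM in the sunitinib-titled libraries (log2 difference −0.09, adjusted p = 0.237). COPS7A was at 34.3, 35.7 and 33.7 FPKM in the sunitinib-titled libraries (log2 difference −0.20, 95% interval −0.35 to −0.04, adjusted p = 0.0710). With the 3 called genes this made 5 of 10 members whose sunitinib-titled libraries all lay below DMSO, as 29.3% of tested genes did. No member lay wholly above DMSO, as 5.89% of tested genes did, and 35.2% of tested genes did not overlap in either direction. NEDD8 differed by −0.11 (95% interval −0.29 to 0.07, adjusted p = 0.366), COPS6 by −0.18 (adjusted p = 0.150), GPS1 by −0.07 (adjusted p = 0.557), COPS4 by −0.05 (adjusted p = 0.585) and COPS8 by 0.01 (adjusted p = 0.883). Without DMSO replicate 1 the differences were −0.21 for NEDD8 (adjusted p = 0.00372), −0.28 for COPS6 (adjusted p = 0.000267), −0.17 for GPS1 (adjusted p = 0.0215) and −0.27 for COPS7A (adjusted p = 0.00693), and all 4 were then called. COPS8 was called higher at 0.10 with median centring, 0.13 with quantile normalization and 0.14 with cyclic loess. In the main model, with all libraries and the values as deposited, no member was called against DMSO in both treated groups. With robust variance COPS7A was called in both, at −0.20 in the sunitinib-titled libraries (adjusted p = 0.0428).

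**Figure D2:**
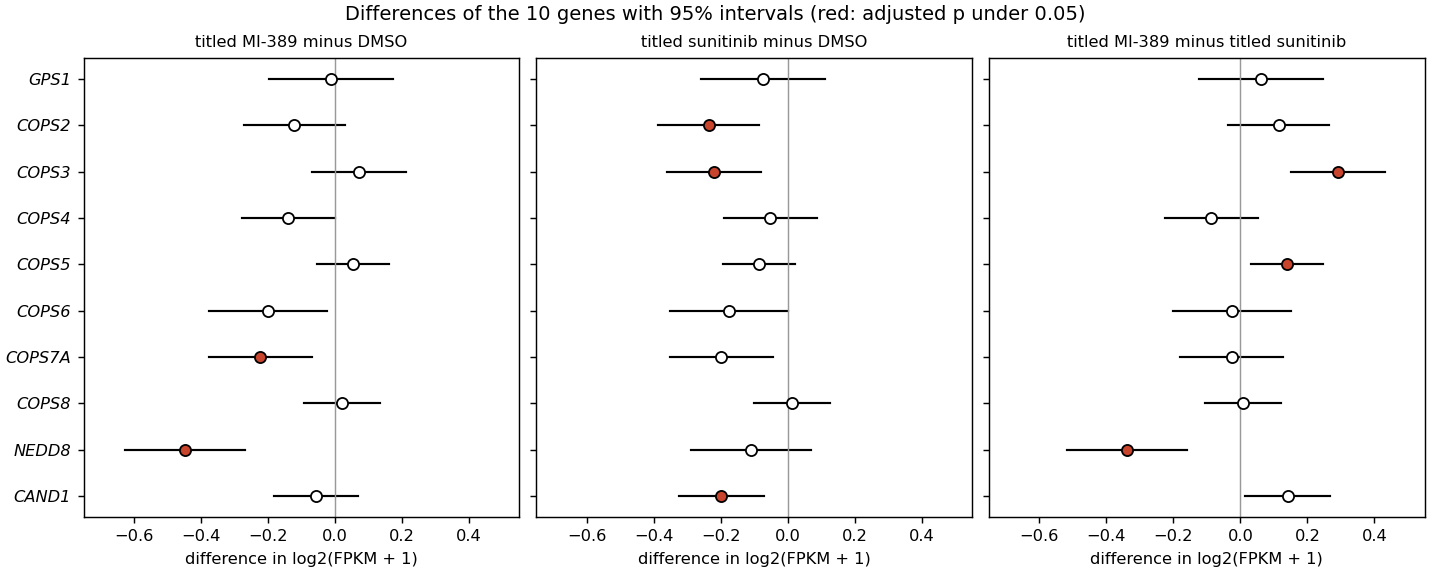
Log2 differences of the 10 members on the log2(FPKM + 1) scale in the 3 comparisons, 1 panel each, with 95% intervals from limma; red points have an adjusted p under 0.05. NEDD8 was lower in the MI-389-titled libraries than in both other groups, at −0.45 and −0.34, and COPS3 was higher there than in the sunitinib-titled libraries, at 0.29.

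Between the treated groups, COPS3 and COPS5 were higher and NEDD8 was lower in the MI-389-titled libraries than in the sunitinib-titled libraries. These were 3 of 10 members, beside 56.3% of all tested genes called, 36.0% higher and 20.3% lower. The median log2 difference of the members was 0.04, and that of all tested genes was 0.08. Over all tested genes 4427 were higher and 2500 lower, and with median centring 3279 and 4863. As the doses differ in the source field, these are differences between 2 treated groups and not between compounds at matched dose.

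COPS3 was at 215, 207.5 and 216 FPKM in the MI-389-titled libraries, all above the 173 to 174 FPKM of the sunitinib-titled libraries. The mean was 22.6% higher (log2 difference 0.29, 95% interval 0.15 to 0.43, adjusted p = 0.00307), and it passed the threshold under all 21 alternatives, at 0.13 with median centring. COPS5 was at 192, 182 and 178 FPKM in the MI-389-titled libraries, above the 165 to 169 FPKM of the sunitinib-titled libraries. Its mean was 10.2% higher (log2 difference 0.14, 95% interval 0.03 to 0.25, adjusted p = 0.0310). That call held under 13 of 21 alternatives, and the difference was −0.03 with median centring. CSPP1, which overlaps COPS5, was also higher, at 27.7 ± 2.19 FPKM against 17.3 ± 0.765 FPKM (log2 difference 0.65, adjusted p = 5.9e-05), and its part in this difference was not tested.

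NEDD8 was 21.0% lower in the MI-389-titled libraries than in the sunitinib-titled libraries (log2 difference −0.34, 95% interval −0.52 to −0.16, adjusted p = 0.00529), past the threshold under all 21 alternatives, which gave −0.50 to −0.15. GMPR2, on the opposite strand, was lower there too (log2 difference −0.21, adjusted p = 0.00606), from 99.9 ± 1.70 to 85.9 ± 3.12 FPKM; its part in the NEDD8 values was not tested. CAND1 was at 94.5, 89.97 and 94.3 FPKM in the MI-389-titled libraries and did not overlap with the sunitinib-titled libraries, but was not called (log2 difference 0.14, 95% interval 0.01 to 0.27, adjusted p = 0.0559; 0.0188 without DMSO replicate 1, which changes only the shared spread). Libraries of 3 members thus all lay higher and those of 1 member all lay lower, beside 42.5% and 27.0% of tested genes (69.4% in either direction). The other 6 members overlapped, with intervals that held 0, such as −0.10 to 0.12 for COPS8. In the main model, with all libraries and the values as deposited, COPS4, COPS6, COPS8 and GPS1 were called in none of the 3 comparisons. Robust variance called COPS6 lower in the MI-389-titled libraries than in DMSO, as given above.

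The makeup of the subunit transcripts was described as the share of each in the summed FPKM of 10 signalosome subunits (the 8 members, COPS7B and COPS9), which does not depend on a factor that multiplies a whole library. The sum was 1859.8 ± 173 FPKM in DMSO, 1698 ± 46.2 FPKM in the MI-389-titled libraries and 1710.2 ± 21.3 FPKM in the sunitinib-titled libraries. COPS3 made up 11.1%, 10.6% and 11.1% of it in DMSO, 12.4%, 12.6% and 12.6% in the MI-389-titled libraries and 10.2%, 10.0% and 10.2% in the sunitinib-titled libraries. The libraries of the 3 groups did not overlap for COPS3. COPS7B made up 5.33% ± 0.116 in DMSO, 3.98% ± 0.138 in the MI-389-titled libraries and 5.32% ± 0.049 in the sunitinib-titled libraries. COPS7A made up 28.7% ± 0.941 of the summed COPS7A and COPS7B in DMSO, 33.5% ± 1.46 in the MI-389-titled libraries and 27.5% ± 0.501 in the sunitinib-titled libraries. GPS1 was at 9.62%, 10.4% and 9.91% on average in the 3 groups, and COPS5 at 9.58%, 10.8% and 9.76%; DMSO and MI-389-titled libraries overlapped for COPS5 and not for GPS1. These shares are descriptions, with no test.

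**Figure D3:**
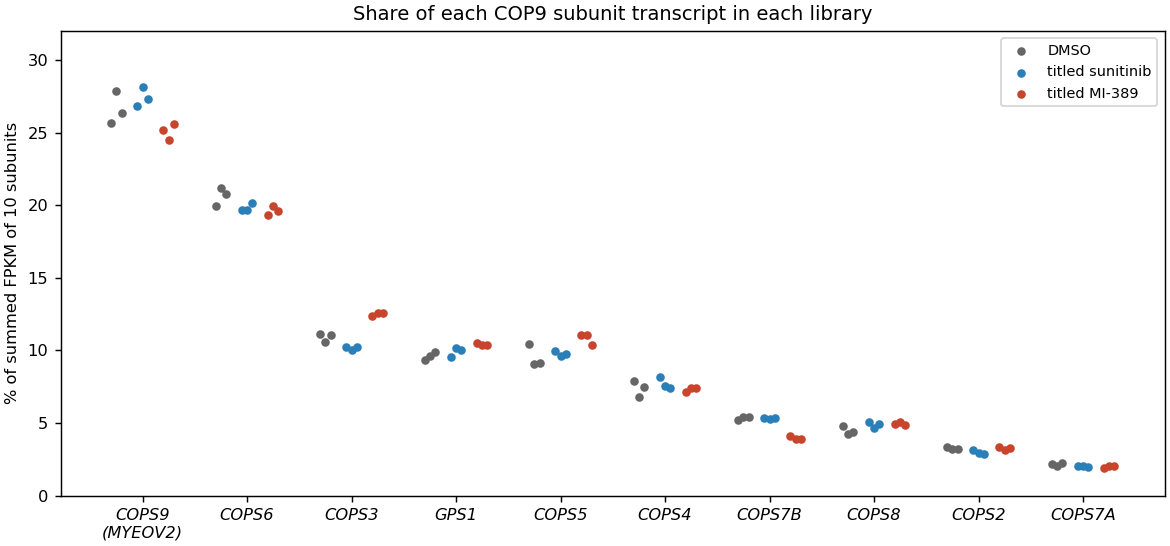
Share of each COP9 signalosome subunit in the summed FPKM of the 10 subunits, in percent, for each of the 9 libraries. COPS3 held 12.4% to 12.6% in the MI-389-titled libraries and 10.0% to 11.1% elsewhere, and COPS7B held 3.88% to 4.13% there and 5.20% to 5.42% elsewhere.

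The rest of the pathway was read from 6 lists with 47 genes outside the members, all of them tested. In the MI-389-titled libraries against DMSO 11 of the 47 rose and 18 fell (median −0.11), beside 28.5% and 28.3% of all tested genes (median −0.00). In the sunitinib-titled libraries against DMSO none rose and 7 fell (median −0.07), beside 2.37% and 16.9%. Between the treated groups 13 were higher and 14 lower in the MI-389-titled libraries, beside 36.0% and 20.3%. These shares over all tested genes are the background for each list below. Between the treated groups, CUL3 (log2 differences of −1.06 to −0.77) and RBX1 (−0.94 to −0.68) were called lower in the MI-389-titled libraries under all 21 alternatives. ARIH1 (0.49 to 0.70) and UBXN7 (0.54 to 0.80) were called higher under all of them.

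Of the remaining signalosome subunits, COPS7B was at 86.5, 104 and 108 FPKM in DMSO and at 71.7, 64.4 and 66.5 FPKM in the MI-389-titled libraries. The groups did not overlap and the difference was −0.55 (adjusted p = 0.000314), beside −0.45 for NEDD8. COPS9 (MYEOV2) was at 496 ± 60.5 FPKM in DMSO and 426 ± 20.4 FPKM in the MI-389-titled libraries, and was not called. Neither was called in the sunitinib-titled libraries against DMSO.

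Among 11 genes of NEDD8 conjugation, 3 rose and 4 fell in the MI-389-titled libraries against DMSO (median −0.07). Of all tested genes, 28.5% were called higher and 28.3% lower. NAE1, the regulatory subunit of the NEDD8 activating enzyme, was at 253, 274 and 286 FPKM in DMSO and at 166, 163 and 165 FPKM in the MI-389-titled libraries (log2 difference −0.72, adjusted p = 5.75e-06). UBA3, the catalytic part of the same enzyme, was not called, and the ratio of NAE1 to UBA3 was 3.10 ± 0.165 in DMSO and 2.04 ± 0.017 in the MI-389-titled libraries. RBX1, the RING protein of most cullins, was at 267, 288 and 294 FPKM in DMSO, at 164, 159 and 163 FPKM in the MI-389-titled libraries and at 285, 281 and 271 FPKM in the sunitinib-titled libraries. Its difference from DMSO was −0.80 in the MI-389-titled libraries (adjusted p = 2.32e-06). RNF7, the RING protein paired with CUL5, rose by 0.20 (adjusted p = 0.0152), and RBX1 per RNF7 was 4.95 ± 0.105 in DMSO and 2.46 ± 0.010 in the MI-389-titled libraries. Of the conjugating enzymes UBE2F fell (−0.32, adjusted p = 0.0022) and UBE2M, the enzyme of the RBX1-bound cullins, was not called. In the sunitinib-titled libraries 3 of the 11 genes fell, NAE1 (−0.22, adjusted p = 0.0211), DCUN1D4 (−0.17, adjusted p = 0.0457) and DCUN1D5 (−0.20, adjusted p = 0.0384). These calls held under 14, 4 and 6 of 21 alternatives, and with quantile normalization the differences were −0.09, −0.08 and −0.13. DCUN1D4, one of the co-factors that help NEDD8 onto cullins, rose in the MI-389-titled libraries (0.31, adjusted p = 0.000719). DCUN1D3 was also called higher there than in DMSO, from 3.13 ± 0.294 to 5.25 ± 0.381 FPKM.

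Of 8 cullins, 4 fell and none rose in the MI-389-titled libraries (median −0.22), beside 28.3% of all tested genes called lower and 28.5% higher. CUL3, the scaffold of BTB-domain receptors, was at 41.0, 42.0 and 44.9 FPKM in DMSO, at 21.1, 20.7 and 21.3 FPKM in the MI-389-titled libraries and at 42.4, 37.2 and 38.4 FPKM in the sunitinib-titled libraries. It fell 2.03-fold against DMSO (log2 difference −0.99, adjusted p = 1.6e-06). CUL1, the scaffold of F-box receptors, fell by 0.73 on the log2 scale (adjusted p = 2.89e-05), CUL4A, the scaffold used by cereblon, by 0.36 (adjusted p = 0.000315) and CUL5 by 0.33 (adjusted p = 0.00319). CUL2, CUL4B, CUL7 and CUL9 were not called. In the sunitinib-titled libraries, CUL4A was the 1 cullin that fell (−0.18, adjusted p = 0.042), a call that held under 5 of 21 alternatives, and it was −0.06 with quantile normalization.

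The members can be set against these scaffolds within each library. The summed FPKM of CUL1, CUL2, CUL3, CUL4A, CUL4B and CUL5 was 297 ± 19.2 in DMSO, 220.2 ± 7.28 in the MI-389-titled libraries and 269 ± 12.6 in the sunitinib-titled libraries. NEDD8 per summed cullin was 2.37 ± 0.289, 2.33 ± 0.068 and 2.41 ± 0.178 in the same order, and the groups overlapped. CAND1 per summed cullin was 0.326 ± 0.006 in DMSO, 0.422 ± 0.006 in the MI-389-titled libraries and 0.313 ± 0.007 in the sunitinib-titled libraries. COPS3 per summed cullin was 0.684 ± 0.032, 0.966 ± 0.013 and 0.645 ± 0.031, and COPS5 per summed cullin 0.598 ± 0.024, 0.836 ± 0.045 and 0.620 ± 0.024. For all members but NEDD8 the 3 MI-389-titled libraries lay above the other 6 in this ratio, in which the cullin sum itself was lower. These ratios compare transcripts per length, and were not tested.

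**Figure D4:**
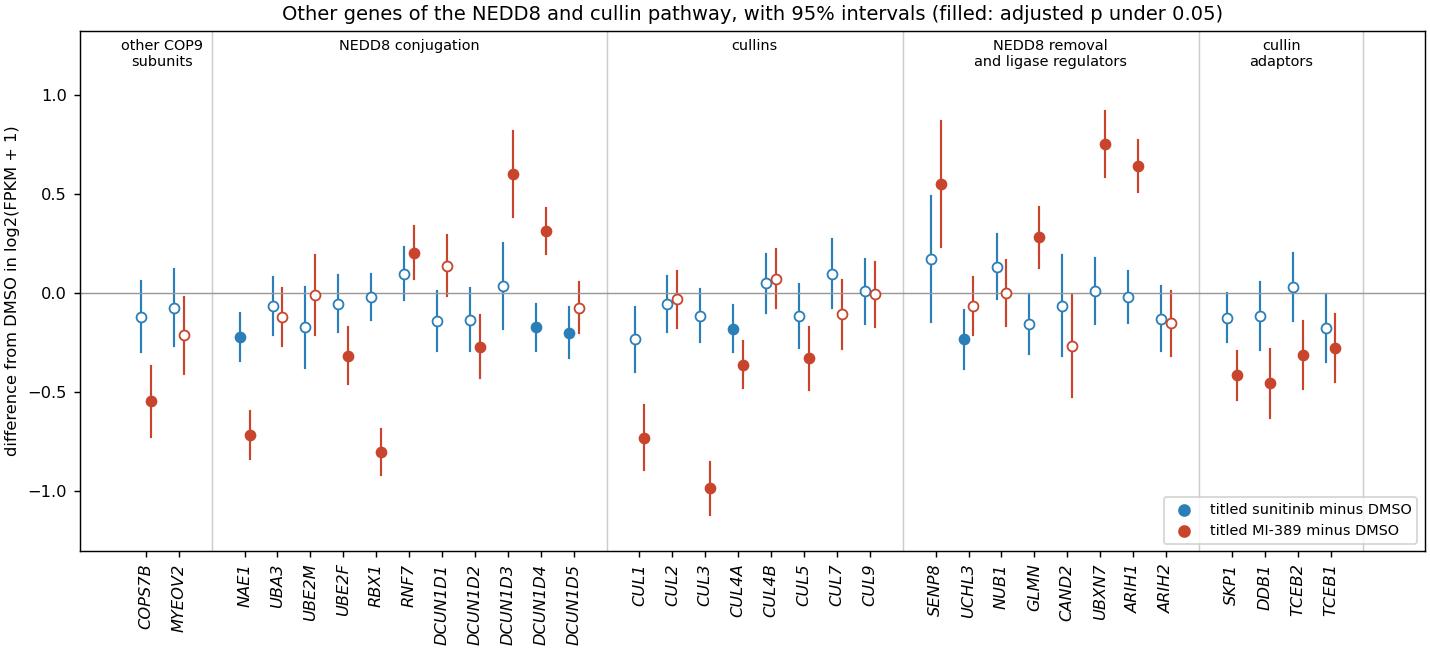
Log2 differences from DMSO on the log2(FPKM + 1) scale of genes of 5 neighbouring lists (other COP9 subunits, NEDD8 conjugation, cullins, NEDD8 removal and ligase regulators, cullin adaptors), in the MI-389-titled libraries and in the sunitinib-titled libraries; filled points have an adjusted p under 0.05. CUL3, RBX1, CUL1 and NAE1 lie farthest below 0 in the MI-389-titled libraries, at −0.99 to −0.72.

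All 4 cullin adaptors fell in the MI-389-titled libraries (median −0.36), beside 28.3% of all tested genes called lower. SKP1, the adaptor of CUL1, went from 486 ± 29.99 to 364 ± 7.67 FPKM (log2 difference −0.42, adjusted p = 0.000176) and DDB1, the adaptor of the CUL4 ligases, from 199 ± 23.0 to 144 ± 2.99 FPKM (log2 difference −0.46, adjusted p = 0.000727). The elongins also fell, TCEB2 (ELOB) by 0.31 and TCEB1 (ELOC) by 0.28 on the log2 scale, and with cyclic loess TCEB2 stood at 0.00 (adjusted p = 0.847). None of the 4 was called in the sunitinib-titled libraries against DMSO.

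Of 8 genes of NEDD8 removal and other ligase regulation, 4 rose, none fell and 4 were not called in the MI-389-titled libraries (median 0.14), beside 28.5% of all tested genes called higher. ARIH1, a ubiquitin ligase that works on neddylated cullins, was at 41.9, 41.4 and 45.0 FPKM in DMSO and at 68.5, 65.3 and 67.9 FPKM in the MI-389-titled libraries (log2 difference 0.64, adjusted p = 1.67e-05). UBXN7, which binds neddylated cullins, rose from 8.31 ± 0.660 to 14.7 ± 1.15 FPKM (log2 difference 0.75, adjusted p = 2.93e-05). SENP8, a NEDD8 protease, rose from 6.21 ± 1.29 to 9.50 ± 1.45 FPKM (log2 difference 0.55, adjusted p = 0.00788), and GLMN, which masks the RING protein, rose by 0.28 (adjusted p = 0.00588). In the sunitinib-titled libraries 1 of the 8 fell, UCHL3 (−0.23, adjusted p = 0.0357), a call that held under 10 of 21 alternatives.

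Of 14 substrate receptors, 4 rose and 5 fell in the MI-389-titled libraries (median −0.01), beside 28.5% of all tested genes called higher and 28.3% lower. CRBN, which encodes cereblon, was at 37.5, 37.2 and 39.6 FPKM in DMSO, at 57.3, 49.8 and 53.7 FPKM in the MI-389-titled libraries and at 37.6, 38.3 and 37.97 FPKM in the sunitinib-titled libraries. All MI-389-titled libraries lay above the other 6 (log2 difference from DMSO 0.48, adjusted p = 9.37e-05). KLHL20 rose by 0.50 (adjusted p = 0.000318). CCNF, an F-box protein, fell by 0.72 (adjusted p = 1.25e-05) and SKP2, another, by 0.56 (adjusted p = 0.00029) on the log2 scale. KEAP1 was also called lower, from 63.9 ± 3.19 to 43.4 ± 2.42 FPKM. In the sunitinib-titled libraries SKP2 (−0.41, adjusted p = 0.0102) and DTL (−0.61, adjusted p = 0.000613) fell.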

How the data were processed

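Per the labels' protocols, RNA of MOLT4 cells was isolated after 6 h, spike-in RNA was added by cell number, and polyA libraries were made with the SMARTer v4 low-input kit, a kit without strand marking. The submitters' processing notes name HISAT, Cufflinks 2.0.0 and hg19. Annotation and scaling are not given in the sources. FPKM values are the authors' own, deposited as 23713 rows of which 92 are spike-in RNAs, with every column mapped to a library. Over 16 spike-in RNAs with at least 10 FPKM the median log2 difference from DMSO was −0.03 (MI-389-titled) and −0.01 (sunitinib-titled). No 2 libraries were identical. Genes whose mean was 1 FPKM or more were tested in R 4.3.3 by limma 3.58.1, on log2(FPKM + 1), all 9 libraries in 1 model with a variance trend, two-sided, with Benjamini-Hochberg adjustment over 12301 genes, a threshold of 0.05 and no filter on fold. That scale understates changes of low genes. Percent and fold differences are ratios of mean FPKM. The model was tested on simulated data. Overlapping genes were read from a gene annotation, and promoters were matched by symbol.

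The rule for named genes took all members, COPS7B, COPS9, the NEDD8 enzymes, RBX1, RNF7, SENP8, CUL1 to CUL5 in every comparison, and for each pathway list up to 4 called genes with the smallest adjusted p per comparison. Not every gene and comparison that the rule took is described, and the pathway lists are given mainly against DMSO. CUL7, CUL9 and the genes that overlap members were named after their values were seen. The members and lists were chosen with earlier results of these data known. Alternatives were pseudocounts of 0.1 and 5, no filter or one at 5 FPKM, median centring, quantile normalization, cyclic loess, spike-in rescaling, a replicate block, the 6 compared libraries alone, no variance trend, robust variance, and each library left out.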

Additional observations from a re-analysis of the deposited data

How the results depend on the processing

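The number of members called changed with the processing, by other settings in each comparison. Against DMSO, the MI-389-titled libraries gave 2 such members, both lower. The number was 6 with median centring (0 higher, 6 lower), 6 with quantile normalization (3 and 3) and 8 with cyclic loess (5 and 3). Of all genes, these scalings called 66.5%, 66.0% and 65.8%. With 1 library left out the number of members called was 1 to 5 (5 without DMSO replicate 1, 1 without replicate 1 of the MI-389-titled libraries). These fits called 48.8% to 58.9% of all tested genes. For the sunitinib-titled libraries against DMSO it was 3, and 3 or 4 under the other scalings, against 0 with no filter, 0 with the 6 compared libraries alone, 0 with no variance trend, and 0 to 7 with 1 library left out (7 without DMSO replicate 1, at most 1 without any other). In that comparison the share of all genes called, 19.3%, became 6.02% with no filter, 9.96% with the 6 libraries alone and 17.5% with no variance trend. The share became 25.5% with median centring, 29.9% with quantile normalization, 31.0% with cyclic loess, and 7.55% to 34.5% with 1 library left out. Between the treated groups 3 members were called. The number was 6 with median centring (1 higher, 5 lower), 5 with quantile normalization (3 and 2) and 7 with cyclic loess (5 and 2). Of all tested genes, these scalings called 66.2%, 66.8% and 66.0%, beside 56.3% in the main model. With 1 library left out the number of members called was 2 to 4, beside 48.4% to 61.7% of all tested genes. The deviations of same-numbered libraries correlated weakly, at −0.04 to 0.11, and DMSO replicate 1 correlated best with replicate 2 of both treated groups. Between the treated groups, same-numbered libraries correlated at 0.070, 0.11 and 0.039, and the other pairs at −0.097 to 0.025. With the replicate block 2, 0 and 2 members were called in the 3 comparisons (COPS2, COPS3 and CAND1 at adjusted p of 0.072, 0.0634 and 0.0621, in the sunitinib-titled libraries against DMSO, and COPS5 at 0.0726 between the treated groups). The block called 55.4%, 15.8% and 54.8% of all tested genes in the same order. Of the other genes named in the sunitinib-titled libraries against DMSO, the block ended the calls of NAE1 (0.0518), CUL4A (0.0786), DCUN1D4 (0.0721) and UCHL3 (0.0651). Among the members' values under alternatives 39 had the other sign, and none of them was that of a called member except COPS5 between the treated groups. With median centring the MI-389-titled libraries against DMSO gave −0.0081 for COPS3, −0.025 for COPS5 and −0.057 for COPS8, the sunitinib-titled libraries against DMSO 0.034 for COPS4, 0.00082 for COPS5 and 0.012 for GPS1, and the treated groups −0.051 for COPS2, −0.026 for COPS5, −0.16 for COPS8, −0.10 for GPS1 and −0.023 for CAND1. With quantile normalization the same comparisons gave 0.026 for COPS6, 0.13 for GPS1 and 0.013 for CAND1, then 0.080 for COPS4, 0.021 for COPS5 and 0.043 for GPS1, then −0.013 for COPS2, 0.060 for COPS6 and −0.064 for COPS8. With cyclic loess they gave 0.016 for COPS4, 0.082 for COPS6, 0.19 for GPS1, 0.040 for CAND1 and 0.0040 for TCEB2, then 0.080 for COPS4, 0.051 for COPS5, 0.063 for GPS1 and 0.015 for NEDD8, then 0.12 for COPS6 and −0.032 for COPS8. With 1 library left out COPS8 gave −0.0063 (without DMSO replicate 1) for the MI-389-titled libraries, −0.015 and −0.0071 (without DMSO replicate 1 or sunitinib replicate 1) for the sunitinib-titled libraries, and −0.0052 and −0.013 (without MI-389 replicate 1 or sunitinib replicate 2) between them, where its highest value was 0.029. GPS1, at −0.11 to 0.056 over these fits, gave 0.019, 0.056 and 0.014 for the MI-389-titled libraries (without DMSO replicate 2, DMSO replicate 3 or MI-389 replicate 2) and COPS4, at −0.089 to 0.0065, gave 0.0065 for the sunitinib-titled libraries (without DMSO replicate 3). The cause of these changes was not tested. DCUN1D3 was not tested with the filter at 5 FPKM. The doses, the crossed compound labels and 3 libraries a group limit every comparison here.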

Other observations

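The proteasome lid and part of eIF3 are built mainly from PCI and MPN subunits as the signalosome is. Of 9 lid genes, 1 rose and 4 fell in the MI-389-titled libraries against DMSO (median −0.14), beside 28.5% of all tested genes called higher and 28.3% lower, and 2 fell in the sunitinib-titled libraries against DMSO (median −0.16), beside 16.9% of all genes called lower. PSMD14, the metalloprotease of the lid and the counterpart of COPS5, rose from 181 to 207 FPKM in the MI-389-titled libraries (log2 difference 0.19, adjusted p = 0.0303). The PCI subunit PSMD12 fell from 155 to 96.9 FPKM (log2 difference −0.67, adjusted p = 5.8e-05). SHFM1 (SEM1), also among the lid genes, went from 1211 ± 127 to 645 ± 16.0 FPKM, and its groups did not overlap. Of 8 eIF3 genes, 1 rose and 2 fell in the MI-389-titled libraries (median −0.11), against the same background. EIF3F, an MPN subunit, fell from 459 to 369 FPKM (log2 difference −0.31, adjusted p = 0.00628), and EIF3K fell by 0.34 on the log2 scale (adjusted p = 0.00283). EIF3C rose by 0.23 (adjusted p = 0.0392), but has a near-identical copy, EIF3CL, so its reads may be divided.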
